A study of Mus musculus with 6 samples.

Results

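Fibronectin (Fn1) and 9 integrin subunits that bind extracellular matrix or its cellular counterparts were followed in mouse blood progenitors labelled as expressing EVI1, and in progenitors with a control vector. The 10 genes are Fn1, Itgav, Itgb3, Itga2b, Itgb7, Itgb4, Itga6, Itga4, Itga5 and Itgb1. They were chosen by name with earlier results of these data known, as were the gene lists below. Shares called among them are therefore not independent of the data. Each of the 10 genes is read by 1 probe set annotated to it alone, so that 10 of the 19937 genes measured are described. None was lost to a filter on dim values, because none was applied to the main comparison.

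The arrays measured lineage-depleted (Lin-) hematopoietic cells, a fraction enriched for stem and progenitor cells, from C57BL6 mice that carry Rosa26rtTA, a transactivator responding to doxycycline. The 3 EVI1 arrays hold cells transduced with the lentiviral vector pRRL.PPT.Tet.Evi1.IRES.EGFP.pre, in which a doxycycline-responsive promoter drives EVI1, a zinc finger transcription factor of the Mecom locus, together with the green fluorescent protein EGFP. The 3 EGFP arrays hold cells given pRRL.PPT.Tet.EGFP.pre, which drives EGFP alone. Both groups therefore share Rosa26rtTA, a Tet lentivirus, EGFP, the sort for EGFP-positive cells, doxycycline (1 µg/ml, added 24 h after transduction) and serum-free culture in murine stem cell factor (50 ng/ml), murine interleukin 3 (20 ng/ml), human Flt3 ligand (50 ng/ml) and human interleukin 11 (50 ng/ml). The time on doxycycline is given as 24 h before RNA preparation in the treatment protocol and as 20 h before the sort in the design text. The labels give neither the age of the mice nor whether replicates are separate animals or transductions, so p-values measure only the spread between these arrays, which may be technical. Total RNA of sorted cells was measured in bulk, and a different mix of cells cannot be told apart from a different amount of transcript per cell.

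Values are log2 intensities after RMA, a method that corrects background, aligns the arrays and summarises the probes of a set. Across genes, which are not independent replicates, 2 arrays of one group correlated at r = 0.976 or more, and 2 arrays of different groups at 0.959 or less. EGFP replicate 2 had the lowest array weight (0.452, against 0.874 to 1.55 for the others), a measure that is low where an array is noisy. A gene is said to rise or fall where limma, a linear model fitted over all genes, gave a Benjamini-Hochberg adjusted p under 0.05. By that rule 9.06% of all genes rose and 9.18% fell. Mecom averaged 6.32 ± 0.16 in the EVI1 arrays and 6.92 ± 0.57 in the EGFP arrays (SD, n = 3 each), and did not pass (limma adjusted p = 0.166), although without EGFP replicate 1 it was called lower in the EVI1 arrays (limma adjusted p = 0.0306). Olfactory receptor genes served as a guide to background, set at the 95th percentile of their means. This guide was 6.99 in the EVI1 arrays and 6.95 in the EGFP arrays, and both means of Mecom lie under it. A second Mecom probe set, not used in the fit, averaged 6.35 ± 0.05 in the EVI1 arrays and 6.58 ± 0.12 in the EGFP arrays (SD). Its values were lower in every EVI1 array than in any EGFP array, and both means lie under the guide. It was not tested whether the Mecom probes match the EVI1 of the vector, so each direction given here is that of the labels.

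Integrins are membrane receptors made of 1 alpha and 1 beta subunit, each from its own gene, and a subunit generally reaches the cell surface only with a partner. They tie matrix proteins such as fibronectin, vitronectin and laminin to the actin or keratin skeleton, and in bone marrow they hold stem and progenitor cells in their niche and mediate homing. The alphav and alphaIIb subunits pair with beta3, alpha4 and alpha5 pair with beta1, alpha4 also pairs with beta7, and alpha6 pairs with beta1 or beta4. Fibronectin is a ligand of several of these receptors, including alphavbeta3, alpha4beta1 and alpha5beta1.

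Of the 10 genes, 5 rose (Fn1, Itgav, Itgb3, Itgb7 and Itgb4), 0 fell and 5 did not pass (Itga2b, Itga6, Itga4, Itga5 and Itgb1). Over all genes 18.2% were called in either direction by the same limma test, and 21.9% with the replicate number as a block. The median log2 fold change of the 10 genes was 0.52, and that of all genes 0.0060. EVI1 values lay wholly above EGFP values for the 5 genes that rose, and wholly below them for Itga6; over all genes 16.1% lay wholly above and 16.5% wholly below. Of the 5 that did not pass by limma, Itga6 had an unadjusted p of 0.0267, and no other had one under 0.05. With the replicate number as a block, with probe sets averaged, with dim probe sets left out, after a further quantile normalisation, with array weights, with trended robust variances and without any 1 array, the count was again 5 up and 0 down. Averaging probe sets and leaving out dim ones changed no value of these 10 genes, so those runs could move only p-values.

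**Figure D1:**
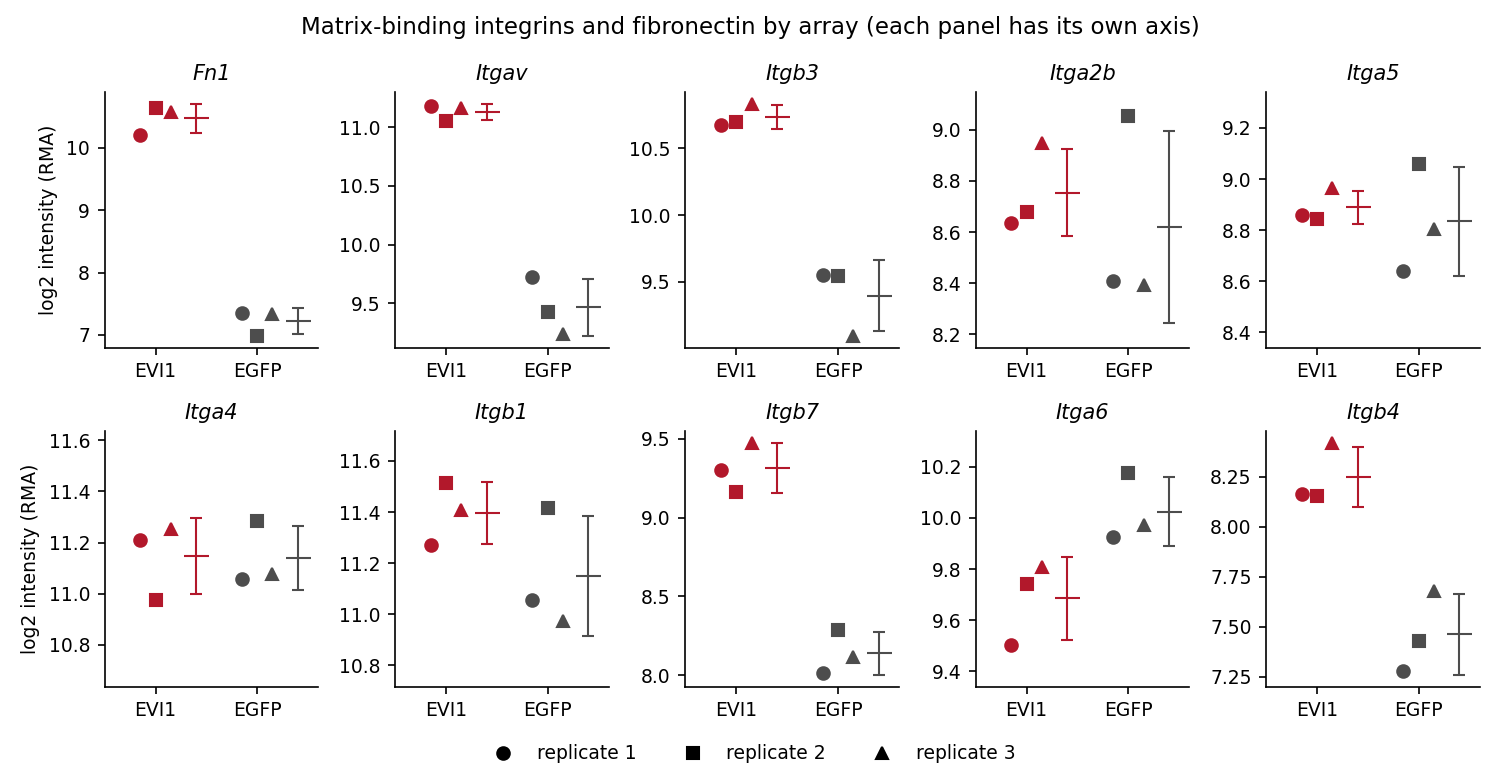
Log2 intensity of each gene in the 3 EVI1 arrays (red, left) and the 3 EGFP arrays (grey, right), with the mean and SD of each group beside the points and 1 panel and axis per gene. Fn1, Itgav, Itgb3, Itgb7 and Itgb4 are higher in every EVI1 array than in any EGFP array, Itga6 is lower in every EVI1 array, and the groups overlap for Itga2b, Itga5, Itga4 and Itgb1.

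The ligand Fn1, which encodes the matrix glycoprotein fibronectin, showed the largest difference of the 10. Its log2 intensities were 10.20, 10.64 and 10.58 in EVI1 replicates 1, 2 and 3, against 7.36, 6.98 and 7.33 in EGFP replicates 1, 2 and 3. The lowest EVI1 array lay 2.84 log2 units above the highest EGFP array, and the EGFP arrays were close to the olfactory receptor guide. It rose by 3.25 ± 0.16 on the log2 scale (SE, n = 3 arrays each; limma adjusted p = 2.55e-05), which is 9.51-fold. Of all 19937 genes, ordered by size of rise, Fn1 was number 30. Without any 1 array its log2 fold change lay between 3.13 and 3.39.

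The alphav and beta3 subunits form the vitronectin receptor, which binds ligands that carry the RGD (arginine-glycine-aspartate) motif, and both rose. Itgav, the alphav subunit, had log2 intensities of 11.18, 11.05 and 11.17 in EVI1 replicates 1 to 3, against 9.73, 9.43 and 9.24 in EGFP replicates 1 to 3. The EVI1 arrays agreed within 0.07 (SD) and the EGFP arrays within 0.24 (SD), and a gap of 1.33 log2 units lay between the groups. Itgav rose by 1.67 ± 0.14 (log2, SE; limma adjusted p = 0.000231), which is 3.17-fold. Itgb3 had 10.67, 10.69 and 10.83 in EVI1 replicates 1 to 3, against 9.55, 9.55 and 9.09 in EGFP replicates 1 to 3. Its groups were 1.12 log2 units apart, and the lowest value was that of EGFP replicate 3, as for Itgav. Itgb3 rose by 1.34 ± 0.15 (log2, SE; limma adjusted p = 0.000662), which is 2.52-fold.

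Itga2b encodes alphaIIb, the other partner of beta3, a marker of megakaryocytes and early progenitors whose pair with beta3 is the fibrinogen receptor of platelets. Its log2 intensities were 8.63, 8.68 and 8.95 in EVI1 replicates 1 to 3, against 8.41, 9.05 and 8.39 in EGFP replicates 1 to 3. The groups overlap, since EGFP replicate 2 was the highest of the 6. The log2 fold change was 0.14 ± 0.19 (SE; limma adjusted p = 0.752), with a 95% interval from -0.30 to 0.57. Without EGFP replicate 2 it was 0.35, which did not pass either (limma adjusted p = 0.106).

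The 250 bases before the transcription start of Itgav, which rose, and of Itga2b, which did not pass, are shown because these subunits share the partner Itgb3 and differed in their change. The sequences are those of RefSeq (GRCm38.p6), read 5′ to 3′ on the strand of the gene, at chr2:83724147-83724396 (+) and chr11:102469884-102470133 (-). Capitals mark the letters GGAAGT on either strand, a core bound by ETS factors such as the myeloid regulator PU.1.
Itgav: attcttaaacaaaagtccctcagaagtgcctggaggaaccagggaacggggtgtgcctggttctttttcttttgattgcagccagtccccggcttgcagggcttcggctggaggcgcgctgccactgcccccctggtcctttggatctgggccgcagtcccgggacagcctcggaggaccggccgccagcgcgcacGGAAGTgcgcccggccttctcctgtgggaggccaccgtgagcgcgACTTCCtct
Itga2b: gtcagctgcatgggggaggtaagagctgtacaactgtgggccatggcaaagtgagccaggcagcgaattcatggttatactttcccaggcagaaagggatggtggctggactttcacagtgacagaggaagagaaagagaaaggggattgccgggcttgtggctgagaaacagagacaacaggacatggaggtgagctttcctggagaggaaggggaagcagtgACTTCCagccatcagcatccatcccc
The Itgav window holds 2 matches and has a GC content of 64.4%, and the Itga2b window holds 1 match with a GC content of 54%. Searched on both strands, these 6 letters occur in 19.7% of all 32851 promoter windows of this length. AGATAA, which lies within a known EVI1 binding sequence, and GAAGATGAG, the letters bound by the second zinc finger domain of EVI1, were searched in the same way. They were in none of the 6 promoters that were matched among the 10 genes (Itgav, Itga2b, Itgb7, Itga4, Itga5 and Itgb1), and in 9.99% and 0.347% of all windows. None of these motifs contains another. Such matches describe the letters only and are not evidence of a bound site.

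The beta7 subunit rose while its partner alpha4 differed by less than the spread between arrays. Itgb7 pairs with alpha4 into a receptor for the vascular addressin MAdCAM1, used in homing to the gut, and with alphaE into a receptor for E-cadherin; it is also found on mast cell progenitors. Itgb7 had log2 intensities of 9.30, 9.16 and 9.48 in EVI1 replicates 1 to 3, against 8.01, 8.28 and 8.12 in EGFP replicates 1 to 3. A gap of 0.88 log2 units separated the groups. Itgb7 rose by 1.18 ± 0.13 (log2, SE; limma adjusted p = 0.000623), which is 2.26-fold.

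Itga4, which with beta1 binds VCAM1 and fibronectin and retains progenitors in the marrow, had log2 intensities of 11.21, 10.98 and 11.25 in EVI1 replicates 1 to 3, against 11.06, 11.29 and 11.08 in EGFP replicates 1 to 3. Both the highest and the lowest of the 6 values came from arrays numbered replicate 2, 1 in each group, and the groups overlap. The log2 fold change was 0.0070 ± 0.12 (SE; limma adjusted p = 0.985), with a 95% interval from -0.27 to 0.29, which holds no change of the size seen for Itgb7. Its sign turned after a further quantile normalisation (-0.026). The 250 bases before the starts of Itgb7 (chr15:102231936-102232185, - strand) and Itga4 (chr2:79255176-79255425, + strand) are shown for these partners as for those of beta3 (RefSeq, GRCm38.p6), and neither window holds the ETS letters on either strand.
Itgb7: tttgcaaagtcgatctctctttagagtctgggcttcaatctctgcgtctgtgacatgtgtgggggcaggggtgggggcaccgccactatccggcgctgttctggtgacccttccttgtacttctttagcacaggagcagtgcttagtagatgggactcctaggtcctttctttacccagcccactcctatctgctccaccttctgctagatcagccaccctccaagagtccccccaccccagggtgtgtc
Itga4: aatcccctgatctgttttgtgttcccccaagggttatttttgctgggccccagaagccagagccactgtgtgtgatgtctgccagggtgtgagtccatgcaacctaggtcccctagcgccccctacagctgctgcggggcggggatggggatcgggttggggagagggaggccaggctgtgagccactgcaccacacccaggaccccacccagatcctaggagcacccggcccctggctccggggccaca
Their GC contents were 56% for Itgb7 and 64% for Itga4, against a median of 52.4% over all windows.

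The classical fibronectin receptor alpha5beta1 did not pass for either subunit. Itga5, whose product binds the RGD site of fibronectin, had log2 intensities of 8.86, 8.85 and 8.96 in EVI1 replicates 1 to 3, against 8.64, 9.06 and 8.81 in EGFP replicates 1 to 3. The EGFP values lie on both sides of the EVI1 values. The log2 fold change was 0.056 ± 0.13 (SE; limma adjusted p = 0.858; 95% interval -0.24 to 0.35), and it was -0.042 without EGFP replicate 1.

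Itgb1, the subunit shared by many matrix receptors, had 11.27, 11.51 and 11.41 in EVI1 replicates 1 to 3, against 11.06, 11.42 and 10.98 in EGFP replicates 1 to 3. Replicate 2 was the highest in both groups, and the groups overlap through EGFP replicate 2. The log2 fold change was 0.25 ± 0.14 (SE; limma adjusted p = 0.325; 95% interval -0.079 to 0.57), and it was 0.38 without EGFP replicate 2 (limma adjusted p = 0.0617).

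Of the laminin receptor subunits, Itgb4 rose and Itga6, named in earlier work on EVI1, did not pass. Itgb4, which pairs with alpha6 and anchors epithelial cells to laminin through hemidesmosomes, had log2 intensities of 8.16, 8.15 and 8.42 in EVI1 replicates 1 to 3, against 7.28, 7.43 and 7.68 in EGFP replicates 1 to 3. Replicate 3 was the highest in both groups, and a gap of 0.47 separated them. Itgb4 rose by 0.78 ± 0.14 (log2, SE; limma adjusted p = 0.00582), which is 1.72-fold.

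Itga6, the common alpha subunit of the laminin receptors alpha6beta1 and alpha6beta4, had 9.50, 9.74 and 9.81 in EVI1 replicates 1 to 3, against 9.92, 10.18 and 9.97 in EGFP replicates 1 to 3. All EVI1 values lay below all EGFP values, by a gap of 0.11. The log2 fold change was -0.34 ± 0.13 (SE; limma adjusted p = 0.112), with a 95% interval from -0.63 to -0.050. This interval, unlike that p-value, is not adjusted over all genes. With a replicate block the adjusted p was 0.0684, and over all alternatives, those without 1 array included, it lay between 0.0684 and 0.335. The 5 genes whose 6 deviations from their own mean lay closest to those of Itga6, by Euclidean distance on the log2 scale over the 6 arrays, were H2bu2 (0.058), Dhx15 (0.089), Inka2 (0.11), Olfr543 (0.11) and Srsf3 (0.12), and none of them passed. Their log2 fold changes lay between -0.40 for Olfr543 and -0.27 for Srsf3, with limma adjusted p between 0.0636 for Dhx15 and 0.185 for Srsf3. The distance includes the difference between the groups, so changes and calls like those of Itga6 were largely set by this choice. H2bu2 lay under the olfactory receptor guide in both groups, and Olfr543 is itself an olfactory receptor gene.

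Because the subunits of a receptor come from separate genes, the log2 ratio of beta over alpha was also followed in each array, set relative to its mean in the EGFP arrays. For Itgb3 over Itga2b it was 1.26, 1.24 and 1.11 in EVI1 replicates 1 to 3, against 0.36, -0.29 and -0.079 in EGFP replicates 1 to 3, a change of 1.20. For Itgb7 over Itga4 it was 1.10, 1.19 and 1.22 in EVI1 replicates 1 to 3, against -0.043, 0.0019 and 0.041 in EGFP replicates 1 to 3, a change of 1.17. Both ratios were thus higher in every EVI1 array than in any EGFP array, and in both pairs the beta subunit rose and the alpha subunit did not pass. For Itgb4 over Itga6 the change was 1.12, to which both subunits contribute, and for Itgb1 over Itga6 it was 0.59. The ratio of Itgb3 over Itgav changed by -0.33 and that of Itgb1 over Itgav by -1.42. The groups did not overlap in these 6 ratios, while they overlapped for Itgb1 over Itga4 (0.24) and Itgb1 over Itga5 (0.19). All of the 6 but Itgb1 over Itga6 hold a subunit that rose, so they are not independent of the calls of single genes. Ratios of other gene pairs were not computed. Of all single genes 16.1% lay wholly above and 16.5% wholly below in the EVI1 arrays. An exact two-sided permutation test gave p = 0.1 for each of the 6, the smallest that 3 arrays against 3 allow, and 0.2 for the other two; adjusted over the 8 pairs these are 0.133 and 0.2, so that no pair could pass. The ratios are of transcripts and say nothing of receptor at the cell surface.

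**Figure D2:**
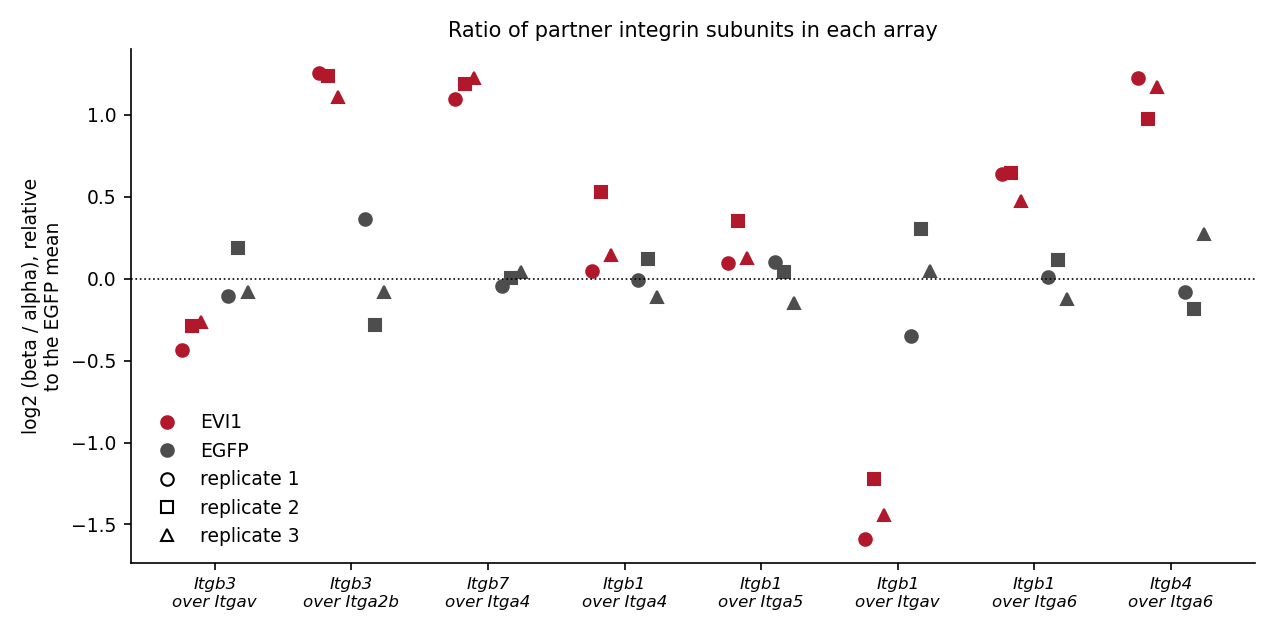
Log2 ratio of a beta over an alpha integrin subunit in each of the 3 EVI1 arrays (red, left of each pair) and 3 EGFP arrays (grey), set relative to the mean of the EGFP arrays, for 8 partner pairs. Itgb3 over Itga2b, Itgb7 over Itga4 and Itgb4 over Itga6 changed by 1.12 to 1.20, and Itgb1 over Itgav by -1.42.

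For the 10 genes it was also counted which array was the highest or lowest of its group. EVI1 replicate 3 was the highest EVI1 array for 7 of them, and EGFP replicate 2 the highest EGFP array for 6, namely Itga2b, Itgb7, Itga6, Itga4, Itga5 and Itgb1. EGFP replicate 2 was the lowest EGFP array for 1 gene, Fn1. These counts were not made over all genes, so it was not tested whether they are particular to the 10. Without EGFP replicate 2 the log2 fold changes were 1.65 for Itgav, 1.41 for Itgb3, 1.25 for Itgb7, 0.77 for Itgb4 and -0.26 for Itga6.

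Among the 18 other integrin subunits, all of them measured, 1 rose, 4 fell and 13 did not pass, with a median log2 fold change of -0.13. Of these 18, 6 lay under the olfactory receptor guide in both groups, as did none of the genes described above. The share called was 27.8%, against 18.2% of all genes. The subunit that rose was Itgae, the alphaE partner of beta7 in binding E-cadherin, with 8.45, 7.70 and 8.14 in EVI1 replicates 1 to 3, against 7.41, 7.41 and 7.20 in EGFP replicates 1 to 3. Its groups did not overlap, and its log2 fold change was 0.76 ± 0.18 (SE; limma adjusted p = 0.0238).

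Of the 4 that fell, 3 belong to the leukocyte integrins that share beta2 and bind ICAM ligands. Itgb2, the common beta2 subunit, had 8.39, 8.56 and 7.84 in EVI1 replicates 1 to 3, against 10.05, 9.91 and 9.60 in EGFP replicates 1 to 3, a log2 fold change of -1.59 ± 0.20 (SE; limma adjusted p = 0.00127). Its alpha partners Itgal (-1.54 ± 0.18, SE) and Itgax (-1.19 ± 0.17) fell as well, the EVI1 mean of Itgax being under the olfactory receptor guide. Itgad, under that guide in both groups, differed by 0.011. Itgam, the alpha subunit of Mac-1, a myeloid lineage marker, differed by -1.03 ± 0.34 (SE; limma adjusted p = 0.0792), and fell with a replicate block (limma adjusted p = 0.00238). The collagen receptor subunit Itga1 fell by 1.29 ± 0.29 on the log2 scale, and Itga2, of another collagen receptor, differed by -0.097 ± 0.12. With a replicate block 6 of the 18 fell and 1 rose, and without EVI1 replicate 3 the number called in either direction was 3 in place of 5.

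**Figure D3:**
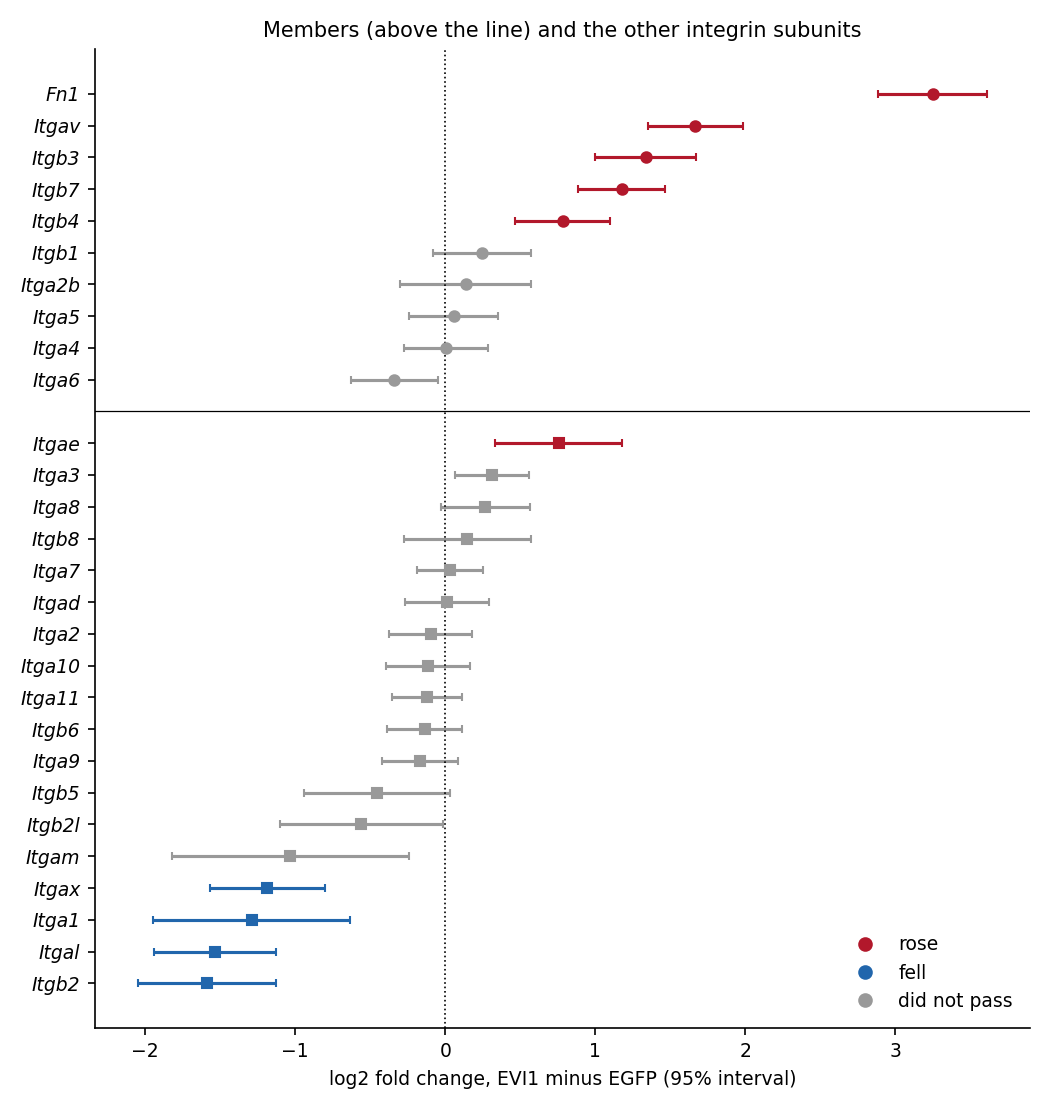
Log2 fold change, EVI1 minus EGFP, with its 95% interval, for the 10 genes described (circles, above the line) and the 18 other integrin subunits (squares), coloured by whether they rose, fell or did not pass at a limma adjusted p under 0.05. The intervals are not adjusted over all genes, so some of those that did not pass exclude 0. Fn1, Itgav, Itgb3, Itgb7 and Itgb4 lie to the right of 0, with Itgae to the right and Itgb2, Itgal, Itgax and Itga1 to the left among the others.

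Thrombospondin, nidogen and von Willebrand factor rose among the other ligands. Of 37 listed ligands and matrix proteins 34 were measured, of which 3 rose, 1 fell and 30 did not pass, with a median log2 fold change of 0.024 and 15 under the olfactory receptor guide in both groups. Thbs1, thrombospondin, a matricellular protein bound by alphavbeta3 and by CD47, rose most. It had 11.59, 11.03 and 11.33 in EVI1 replicates 1 to 3, against 9.50, 8.84 and 8.85 in EGFP replicates 1 to 3, a log2 fold change of 2.25 ± 0.21 (SE; limma adjusted p = 0.000366).

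Nid1, the basement membrane linker nidogen, rose by 0.75 ± 0.14 (log2, SE), and Vwf, von Willebrand factor, by 0.38 ± 0.10. The EGFP mean of Nid1 (6.98) lay just above the olfactory receptor guide in those arrays (6.95). Tgfb1, whose latent form is activated by alphav integrins, fell by 1.08 ± 0.16 on the log2 scale. No laminin chain passed by limma, the lowest unadjusted p among them being 0.113 for Lamb2. Vtn (vitronectin), Vcam1 and Madcam1 lay under the olfactory receptor guide in both groups and differed by 0.041, -0.14 and 0.029 on the log2 scale. The share called in this list was 11.8%, against 18.2% of all genes. With a replicate block Mfge8, a milk fat globule protein bound by alphavbeta3, rose as well (limma adjusted p = 0.0278), which makes 4 up and 1 down.

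Of 48 listed genes of integrin activation and focal adhesion 45 were measured, of which 8 rose, 2 fell and 35 did not pass. The share called was 22.2%, close to the 18.2% of all genes, and the median log2 fold change was 0.085. The actin crosslinker Actn1 (alpha-actinin) rose by 0.81 ± 0.14 (log2, SE), the talin gene Tln2 by 0.61 ± 0.11 and integrin-linked kinase (Ilk) by 0.64 ± 0.14. Plec, encoding plectin, which links the beta4 tail to keratin filaments, had 9.12, 8.98 and 9.05 in EVI1 replicates 1 to 3, against 8.51, 8.49 and 8.29 in EGFP replicates 1 to 3. It rose by 0.62 ± 0.11 (log2, SE; limma adjusted p = 0.00569), and Dst, another linker of hemidesmosomes, rose by 0.43 ± 0.12. Cd151, a tetraspanin that binds alpha6 and alpha3 integrins, differed by 0.48 ± 0.28 (SE; limma adjusted p = 0.326).

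The 2 genes that fell were the endocytic adaptor Dab2 (-1.41 ± 0.28, log2 fold change ± SE) and the exchange factor Arhgef7 (-0.53 ± 0.10). The activators that bind beta tails in blood cells, Tln1 and Fermt3 (kindlin-3), differed by 0.090 ± 0.10 and -0.054 ± 0.15 and did not pass. Without EVI1 replicate 2 or EVI1 replicate 3 the number called in this list was 6 in place of 10.

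Matrix proteases and their inhibitors moved in both directions. Of 17 measured genes of 18 listed, 6 rose, 3 fell and 8 did not pass. That is 52.9% called, against 18.2% of all genes, with a median log2 fold change of 0.22. Mmp2, a gelatinase, had 9.92, 10.05 and 10.36 in EVI1 replicates 1 to 3, against 7.60, 7.83 and 7.43 in EGFP replicates 1 to 3, a log2 fold change of 2.49 ± 0.15 (SE; limma adjusted p = 6.08e-05). Timp2, an inhibitor that also takes part in Mmp2 activation, rose by 2.31 ± 0.29 (log2, SE).

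Mmp9, another gelatinase, rose by 1.92 ± 0.27, with an EGFP mean under the olfactory receptor guide, and the sheddase Adam17 rose by 0.63 ± 0.11. The neutrophil collagenase Mmp8 fell by 3.45 ± 0.61 on the log2 scale, the urokinase gene Plau by 0.96 ± 0.20 and its receptor Plaur by 1.17 ± 0.28, and the EVI1 mean of Plau was under the guide. With a replicate block the macrophage elastase Mmp12 fell too (limma adjusted p = 0.000686), which makes 6 up and 4 down.

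**Figure D4:**
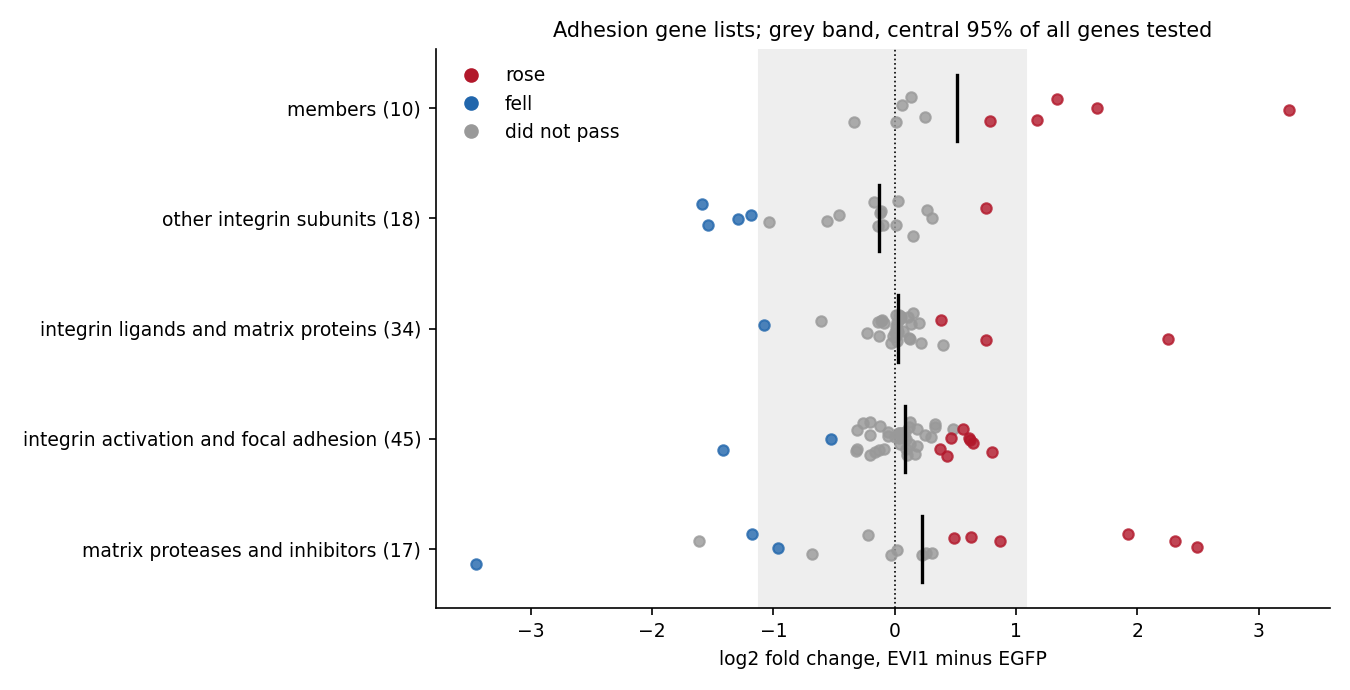
Log2 fold change, EVI1 minus EGFP, of every measured gene (points; vertical position within a row has no meaning) of the 10 genes described and of 4 adhesion lists, with the median of each as a black bar and the central 95% of all genes as a grey band. Fn1 at 3.25, Mmp2 at 2.49, Timp2 at 2.31 and Thbs1 at 2.25 lie far right, and Mmp8 at -3.45 far left.

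Markers of the sorted cells and of cell types that use these integrins differed as well. Over the marker lists the share called ranged from 27.3% (T, B and NK cells) to 66.7% (mast cells and basophils). By the same limma test 18.2% of all genes were called, and 21.9% with a replicate block. The pan-leukocyte gene Ptprc and the progenitor genes Kit, Gata2 and Myb were above the olfactory receptor guide in both groups. Of 14 measured stem and progenitor markers of 16 listed, 8 fell and 1 rose (Ptprc, 0.76), and Cd34 fell by 2.45 ± 0.20 on the log2 scale. The mean log2 intensity of that list ranged from 9.35 to 9.42 in the EVI1 arrays and from 9.72 to 9.99 in the EGFP arrays. With a replicate block 2 rose and 8 fell, and without EGFP replicate 3 the number called was 5.

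Megakaryocyte and platelet markers, relevant to Itga2b and Itgb3, were lower for 4 and higher for 2 of 11 measured genes of 15 listed. Their mean log2 intensity ranged from 8.72 to 8.80 in the EVI1 arrays and from 8.99 to 9.20 in the EGFP arrays. Ppbp and Nfe2 rose and F2rl2, Plek, Gp5 and Pf4 fell, and the other 5 did not pass. Of 12 measured mast cell and basophil markers of 13 listed, relevant to Itgb7, 8 fell and 0 rose, with means from 8.57 to 8.59 in the EVI1 arrays and from 9.39 to 9.84 in the EGFP arrays. Without EVI1 replicate 1 or EGFP replicate 3 the number called among them was 5.

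Adherent cell types are rich in Fn1 and, for epithelia, in Itgb4 and Itga6. Of 15 stromal and endothelial markers, all measured, 4 rose (Cdh5, Tek, Thy1 and Kdr) and 1 fell (Pdgfrb), with means from 7.63 to 7.85 in the EVI1 arrays and from 7.08 to 7.29 in the EGFP arrays. The fibroblast collagens Col1a1, Col1a2 and Col3a1 differed by 0.046, 0.056 and 0.11 on the log2 scale and did not pass, and Pdgfra and Lepr lay under the olfactory receptor guide in both groups. Of 12 measured epithelial markers of 13 listed, 5 rose (Epcam, Cdh1, Esrp1, Krt18 and Krt19) and 0 fell, with means from 7.81 to 7.91 in the EVI1 arrays and from 7.07 to 7.27 in the EGFP arrays. Epcam, with an EGFP mean under the guide, rose by 3.19 ± 0.21 (log2, SE) and Cdh1, the E-cadherin bound by alphaEbeta7, by 1.41 ± 0.18, while the keratins Krt5 and Krt14 lay under the guide in both groups.

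Of 13 measured monocyte and macrophage markers of 14 listed, 3 rose and 2 fell, with means from 8.90 to 9.14 in the EVI1 arrays and from 8.56 to 8.95 in the EGFP arrays, and with a replicate block 3 rose and 4 fell. The number called was 2 without EVI1 replicate 3 and 3 without EVI1 replicate 2 or EGFP replicate 1. Of the 11 mature neutrophil markers 3 rose and 2 fell, and with a replicate block 3 rose and 5 fell; the means ranged from 8.55 to 9.17 in the EVI1 arrays and from 8.87 to 9.70 in the EGFP arrays. Of 7 measured erythroid markers 2 rose and 0 fell, and of 11 measured T, B and NK cell markers 1 rose and 2 fell; with a replicate block these were 3 and 0, and 1 and 3. The part of the cell mix in the changes of Fn1 and the integrins was not tested.

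**Figure D5:**
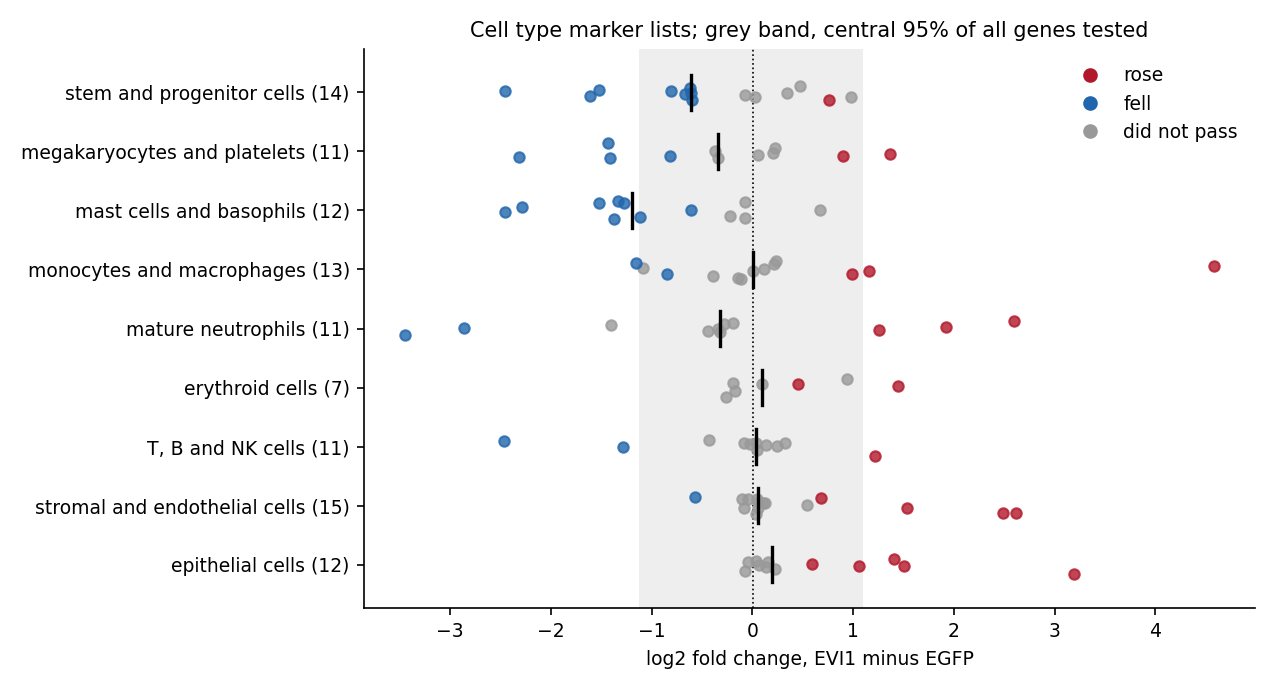
Log2 fold change, EVI1 minus EGFP, of every measured marker gene (points; vertical position within a row has no meaning) in 9 cell type lists, with the median of each list as a black bar and the central 95% of all genes as a grey band. Of the mast cell and basophil markers 8 of 12 fell, and of the epithelial markers 5 of 12 rose. Over all genes 9.18% fell and 9.06% rose.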

How the data were processed

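RNA of 6 samples was hybridised to Affymetrix Mouse Gene ST arrays, 1 colour each. The authors deposited log2 intensities made by RMA, per the submitters' processing notes; its version is not given in the sources used here. Per array the median was 7.24 to 7.31, and the small number of arrays limits precision. Detection calls were not used here, so the 95th percentile of 1015 olfactory receptor genes served as a guide to background.

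Of 34760 probe sets, 21640 carried 1 gene symbol, 1321 several and 11799 none. Each gene was represented by its probe set with the highest mean, giving 19937 genes. EVI1 was compared with EGFP in limma 3.58.1 (R 4.3.3; lmFit and eBayes), with Benjamini-Hochberg adjustment over all genes. Standard errors and 95% intervals come from that fit. The intervals are for single genes and are not adjusted over all genes. An interval can therefore leave out no change where the adjusted p did not pass. The script was tested on simulated data.

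Replicate numbers were checked for pairing: once each group's mean was taken off, an EVI1 and an EGFP array of one number correlated over genes at r = 0.491, 0.269 and 0.197, all above 0.1, so the blocked fit is given where it changes a count or a named gene's call.

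The 10 genes and all gene lists were chosen with earlier results of these data known. The lists (4 adhesion, 9 marker) hold 230 symbols, 211 of them measured. Named list genes are the 4 with the smallest p, and every called gene where at most 5 were called in a direction, with Itga2 and the beta2 integrins Itgal, Itgam, Itgax and Itgb2; Itgad, Mfge8, Mmp12, Ilk, Dst, Cd151, Tln1, Fermt3, Lamb2, Vtn, Vcam1, Madcam1 and the markers were named after their values were seen. Alternatives are in the closing section.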

Additional observations from a re-analysis of the deposited data

How the results depend on the processing

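The calls of the 10 genes, 5 up and 0 down, were the same in the 13 alternatives run, which were a replicate block, averaged probe sets, 2 filters on dim probe sets, a further quantile normalisation, trended robust variances, array weights, and each array left out in turn. Each of the 10 has 1 probe set and none was filtered out. Averaging and the 2 filters thus left their values as they were and could move only p-values. With the replicate block, the blocked adjusted p-values from limma were 0.000183 for Fn1, 0.000490 for Itgav, 0.00169 for Itgb3, 0.00153 for Itgb7 and 0.00256 for Itgb4, and the block changed no call of the 10. It gave 2172 genes up and 2189 down over all genes. The log2 difference of Itga4 was -0.026 after a further quantile normalisation and ranged from -0.046 to 0.093 with 1 array left out, and that of Itga5 ranged from -0.042 to 0.17; neither passed in any of these. Mecom ranged from -0.87 to -0.30, and passed without EGFP replicate 1 (limma adjusted p = 0.0306). With 1 array left out, the number of all genes that rose ranged from 1179 to 2037 and that fell from 1110 to 2061, the lowest of each without EVI1 replicate 3. The numbers called ranged in the same way from 6 to 9 for integrin activation and focal adhesion, 3 to 6 for the other integrin subunits, 5 to 12 for stem and progenitor markers, 5 to 8 for mast cell and basophil markers, 2 to 5 for monocyte and macrophage markers and 1 to 2 for erythroid markers. With a replicate block 8 neutrophil markers were called, in place of 5. With the stricter filter, at the median, 3 epithelial markers were called in place of 5, where 5 of the 12 were left to test. The cause of these shifts was not tested. A filter leaves fewer genes to test and a left-out array fewer arrays, while the block leaves out neither. No value was obtained for Mecom under the filter at the median, as its mean is below the median. The EGFP mean of Fn1 (7.22) lay close to the olfactory receptor guide (6.95), and how far background enters its fold change was not tested.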
